A study of Mus musculus with 6 samples.

Results

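The 9 Hedgehog pathway genes described here are Dhh, Shh, Ptch1, Hhip, Gas1, Smo, Gli1, Gli2 and Gli3, out of 18194 genes named on the arrays. They were chosen by name, as every probe set whose platform annotation gave 1 symbol equal to one of these genes. This gave 23 of 45101 probe sets, and each gene is represented by the probe set with the highest mean over the 6 arrays. The tissue was sciatic nerve of mixed-strain mice at postnatal day 2, when Schwann cells, the glia of peripheral nerves, begin to form myelin. The double knockout (dKO) group held 3 samples that were DhhCre+ and lacked Hdac1 and Hdac2, a pair of class I histone deacetylases, in Schwann cells. The control group held 3 samples of DhhCre- littermates, and the labels do not say whether these carried the floxed alleles. Cre was present in dKO nerves alone, so an effect of the Cre construct and one of the deletion cannot be told apart. The perineurium had been removed from all nerves. RNA of each nerve sample was read on a single Mouse Genome 430 2.0 array (Affymetrix), and no label says how many pups or nerves went into a sample. P-values therefore measure the spread between these samples. No label gives the sex. Xist, which is transcribed from the inactive X chromosome of female cells, was at 11.24 to 11.67 on dKO 2, dKO 3 and control 2 and at 4.14 to 5.31 on dKO 1, control 1 and control 3, and the Y-linked Eif2s3y ran the other way. The groups therefore held different shares of the sexes, 2 of 3 dKO samples and 1 of 3 control samples being Xist-high.

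Hedgehog proteins are secreted ligands that bind the receptor Ptch1. Without ligand, Ptch1 holds the membrane protein Smo inactive, and with ligand Smo signals through the primary cilium to the Gli transcription factors, which switch target genes on or off. Gli1, Ptch1 and Hhip are themselves widely used readouts, since they are transcribed in response to the signal in many tissues. In peripheral nerve, Schwann cells make Desert hedgehog (Dhh), and neighbouring mesenchymal cells that receive it form the perineurial sheath around the nerve.

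Values are log2 expression as deposited, and a change is the dKO mean minus the control mean, given with the standard error (SE) of a limma fit over all 14550 genes tested. A gene was called at an adjusted p under 0.05 (Benjamini-Hochberg over all genes tested). The arrays correlated at 0.980 to 0.991 within dKO, at 0.981 to 0.988 within control and at 0.925 to 0.963 between the groups. The targeted genes were lower in dKO nerves, Hdac1 at 34.1% and Hdac2 at 41.8% of the control level (adjusted p = 0.000271 and 0.00103, limma). Hdac2 changed by -1.26 on the log2 scale, and by -0.71 with its probe sets averaged (adjusted p = 0.00431). All 3 Schwann cell markers tested were detected on every array. Sox10 was at 9.92 to 10.66 in dKO and 10.18 to 10.99 in control nerves, while Erbb3 and S100b both fell to 39.7% of the control level. Probe sets differ in how strongly they bind, so their brightness does not rank genes by expression, and a summed level of a list is weighted towards its bright probe sets.

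Of the 9 Hedgehog genes, 3 were higher in dKO nerves and 0 were lower, while 6 did not pass the test. The 3 were Gli2, Gas1 and Gli3. Across all genes tested, 22% were called, 12.6% higher and 9.38% lower in dKO. With arrays centred on the median of the tested genes, which moves the median change to -0.07, 1603 genes were called higher and 1640 lower, against 1833 and 1365. All 9 genes passed the low-value filter with every array at or above its limit of 4. In 7 of the 9 the dKO mean lay above the control mean, and the median change was 0.65, against 0.006 over all genes tested. The dKO values lay wholly above the control values for 5 genes (Gli1, Gli2, Gli3, Gas1 and Ptch1) and wholly below them for 0. Over all genes tested, 40.9% had groups that did not overlap, 22.6% with dKO above. Before adjustment 6 of the 9 had p under 0.05, all with dKO above control, while 34.3% of all genes tested did, 19.5% with dKO above. With the Xist level as a block, an alternative chosen after the data were seen, Gli2, Gas1 and Gli3 were called (changes of 1.60, 1.39 and 0.74, adjusted p = 0.0147, 0.0404 and 0.0349) and so was Hhip (0.98, adjusted p = 0.0402). Within the 3 Xist-high arrays the changes of Gli2, Gas1 and Gli3 were 1.46, 1.09 and 0.64, and within the 3 Xist-low arrays 1.73, 1.69 and 0.84, with no test. Without limma's moderation of the variance across genes, 0 of the 9 were called (4 at an unadjusted p under 0.05), and 1526 genes in all against 3198.

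**Figure D1:**
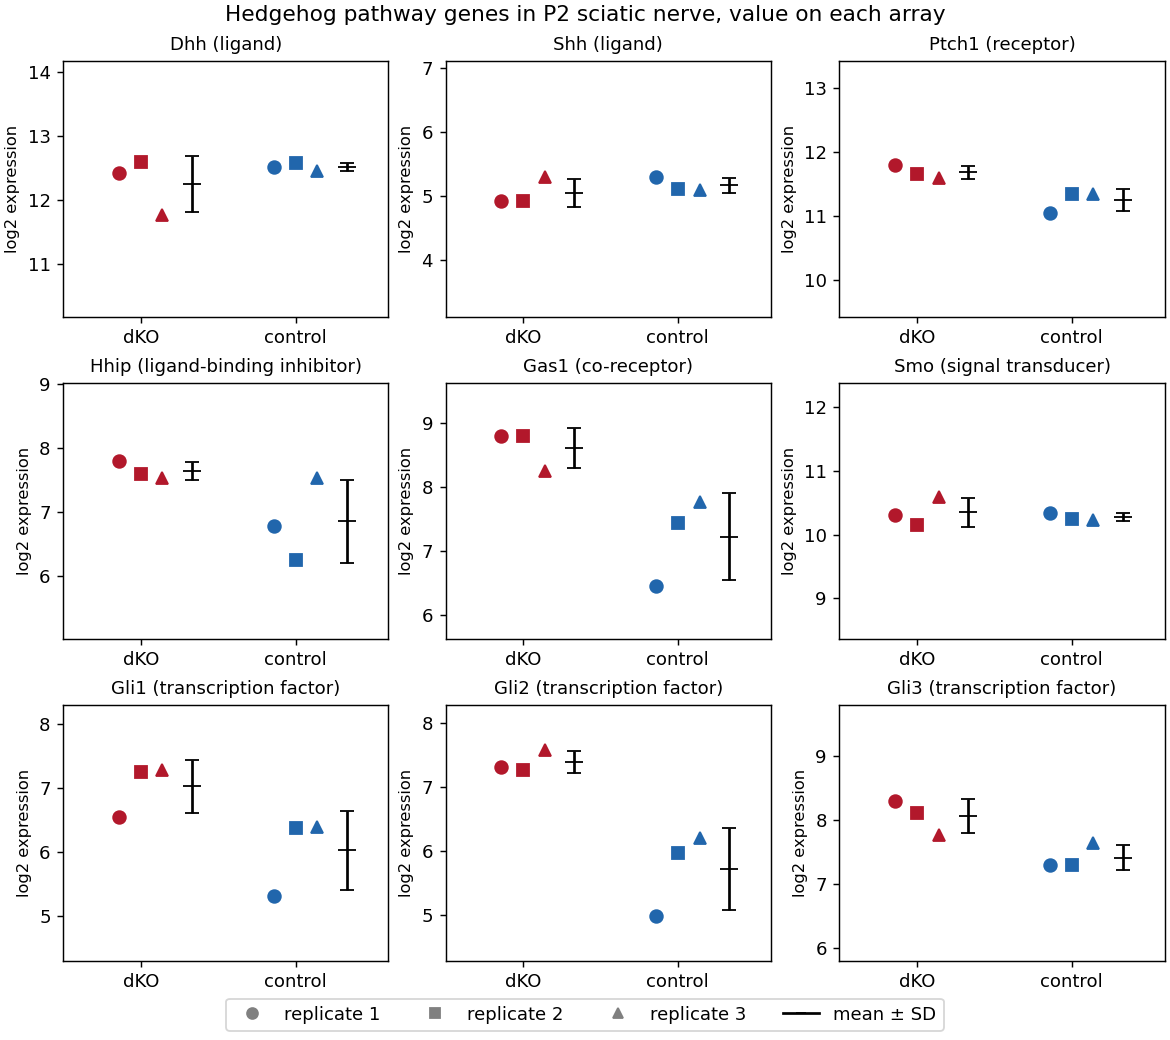
Log2 expression (y axis, each panel spanning the same range) of the 9 Hedgehog genes on each array, dKO at the left and control at the right, with the mean and SD of 3 arrays as black bars. The groups do not overlap for Ptch1, Gas1, Gli1, Gli2 and Gli3, and control 1 is the lowest array for Ptch1, Gas1, Gli1 and Gli2.

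The stretches upstream of the transcription start are shown for Gas1 and Gli3, which were called, and for Dhh, the ligand gene whose name the Cre driver carries. Each is the 250 bases before a RefSeq start in build GRCm38.p6, read 5′ to 3′ on the gene's strand, and capitals mark the 6-letter core CCACCC or its reverse complement GGGTGG. That core is the centre of the 9-letter sequence that GLI proteins are known to prefer, GACCACCCA.
Gas1 (chr13:60177536-60177785, minus strand): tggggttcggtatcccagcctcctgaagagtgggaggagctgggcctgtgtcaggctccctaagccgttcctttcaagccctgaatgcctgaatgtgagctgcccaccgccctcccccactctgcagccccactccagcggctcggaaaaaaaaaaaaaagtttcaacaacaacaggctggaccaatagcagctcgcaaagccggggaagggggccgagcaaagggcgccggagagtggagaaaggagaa
Gli3 (chr13:15463473-15463722, plus strand): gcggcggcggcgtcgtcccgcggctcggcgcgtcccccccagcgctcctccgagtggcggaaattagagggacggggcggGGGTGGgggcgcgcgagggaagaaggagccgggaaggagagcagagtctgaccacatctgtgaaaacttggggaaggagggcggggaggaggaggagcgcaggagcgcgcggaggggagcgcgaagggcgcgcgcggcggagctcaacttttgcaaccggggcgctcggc
Dhh (chr15:98898541-98898790, minus strand): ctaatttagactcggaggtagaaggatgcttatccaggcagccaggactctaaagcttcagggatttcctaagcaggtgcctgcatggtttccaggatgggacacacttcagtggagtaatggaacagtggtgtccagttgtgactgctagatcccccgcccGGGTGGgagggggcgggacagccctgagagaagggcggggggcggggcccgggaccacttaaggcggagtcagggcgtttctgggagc
The RefSeq table used here held such windows for 7 of the 9 genes. The full GACCACCCA, searched on both strands, was in 0 of these 7 and in 0.225% of all 32851 promoter windows of the same length. The core, which lies inside the full motif, was in 5 of the 7 and in 28.1% of all windows. It stood 170 bases before the start in Gli3 and 88 bases before it in Dhh, and was not in the Gas1 window. Gli2 had 2 copies, 205 and 192 bases before the start that the table uses. The Gli3 window had a GC content of 72.8%, the Gas1 window 58.8% and the Dhh window 59.6%, against a median of 52.4% over all windows. The Gli2, Smo, Hhip and Ptch1 windows had 67.2%, 68.4%, 76% and 78.4%. All 7 windows thus lay above that median, and the core is itself mostly G and C. The share with the core was not compared with windows of like GC content. A match of letters is a description, and its absence says only that these letters are not in these windows.

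Dhh, the Schwann cell ligand, was high on every array and did not pass the test. It had 12.42, 12.59 and 11.76 in dKO 1, 2 and 3, against 12.52, 12.58 and 12.46 in control 1, 2 and 3. The dKO 3 array was low and the other dKO arrays lay within 0.1 of the control mean. The change was -0.26 (SE 0.22, 95% interval -0.76 to 0.24, adjusted p = 0.435 by limma), and -0.02 without dKO 3. In linear terms the interval runs from 0.59-fold to 1.18-fold, so a loss to under 0.59 of the control level lies outside it. The dimmer Dhh probe set, at 5.34 to 5.86 in dKO and 5.72 to 5.77 in control nerves, changed by -0.14 (SE 0.17). It was highest on dKO 3 (5.86), so it did not share the low dKO 3 value. Among genes that mark Schwann cells, the neuregulin receptor Erbb3 and the calcium-binding protein S100b both fell by 1.33 (adjusted p = 0.00684 for Erbb3 and 0.00761 for S100b). Sox10, the lineage factor, had a change of -0.36 (SE 0.26, adjusted p = 0.371). The difference between the Dhh change and these was not tested. RNA came from whole nerve samples, so fewer cells of a type and less RNA per cell cannot be told apart.

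Shh, the Sonic hedgehog ligand of the neural tube and limb, had 4.92, 4.92 and 5.30 in dKO 1, 2 and 3, against 5.30, 5.11 and 5.10 in control 1, 2 and 3. All values lay a little above the low-value limit of 4 and the groups overlapped. The change was -0.12 (SE 0.16, 95% interval -0.48 to 0.24, adjusted p = 0.636, limma). Its other probe set was under the limit on all 6 arrays, at 2.07 to 2.46. Ihh, the Indian hedgehog ligand of cartilage, lay at 4.21 to 4.39 in dKO and 3.97 to 4.40 in control nerves, with a change of 0.16 (SE 0.16, adjusted p = 0.539). Of the 3 ligand genes, 0 passed in either direction at an adjusted or an unadjusted p of 0.05.

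Ptch1, the receptor and a readout of the pathway, lay above control on every dKO array without passing the test. It had 11.80, 11.66 and 11.59 in dKO 1, 2 and 3, against 11.05, 11.35 and 11.35 in control 1, 2 and 3. The change was 0.43 (SE 0.15, 95% interval 0.09 to 0.77, adjusted p = 0.0735 by limma), or 1.35-fold. With an intensity trend in the variance it passed (adjusted p = 0.0293). The 3 Ptch1 probe sets did not go one way, with changes of 0.43, 0.49 and -0.29, and their average changed by 0.21 (adjusted p = 0.405). Of these, 0 were called in the limma fit over all probe sets (1 at an unadjusted p under 0.05), where 15.8% were called, 8.42% higher and 7.4% lower in dKO.

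Hhip, a membrane protein that binds Hedgehog ligands and limits their reach, had 7.79, 7.59 and 7.53 in dKO 1, 2 and 3, against 6.78, 6.24 and 7.53 in control 1, 2 and 3. The dKO arrays were close together and control 3 reached the level of dKO 3, so the groups overlapped. The change was 0.79 (SE 0.29, 95% interval 0.11 to 1.46, adjusted p = 0.0970 by limma). It was 0.48 without control 2 (adjusted p = 0.241) and 1.12 without control 3, where it passed (adjusted p = 0.00984). All 4 Hhip probe sets had a higher dKO mean, with changes of 0.38 to 1.34, and 0 of the 4 were called. Before adjustment 2 of the 4 had p under 0.05 in limma.

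Gas1, a lipid-anchored co-receptor that helps Hedgehog bind Ptch1, rose in dKO nerves. It had 8.80, 8.80 and 8.26 in dKO 1, 2 and 3, against 6.46, 7.44 and 7.76 in control 1, 2 and 3. The groups did not overlap, and control 1 was far below the other control arrays. The mean was 8.62 ± 0.31 in dKO and 7.22 ± 0.68 in control nerves (SD, n = 3 each), a change of 1.40 (SE 0.33, adjusted p = 0.0177 by limma), or 2.64-fold (95% interval 1.57 to 4.43). Without control 1 the change was 1.02 and still passed (adjusted p = 0.0210). The call was lost without dKO 1 (adjusted p = 0.0607) or dKO 2 (adjusted p = 0.0628), at changes of 1.31 each. All 3 Gas1 probe sets had a higher dKO mean, by 1.40, 1.06 and 0.76, and 2 of them were called.

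Smo, the membrane protein that carries the signal inward, had 10.30, 10.15 and 10.59 in dKO 1, 2 and 3, against 10.34, 10.24 and 10.23 in control 1, 2 and 3. The groups overlapped, with dKO 3 the highest and dKO 2 the lowest array. The change was 0.08 (SE 0.15, 95% interval -0.28 to 0.43, adjusted p = 0.767, limma), or 1.05-fold with an interval of 0.824 to 1.35. It turned to -0.05 without dKO 3 and to -0.009 with the 3 Smo probe sets averaged, and was 0.001 with centred arrays. Of the Smo probe sets, 2 share an annotated sequence record and are not separate evidence.

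Gli2, the main activator of Hedgehog targets in mouse development, had the largest change of the 9 genes. It had 7.32, 7.28 and 7.59 in dKO 1, 2 and 3, against 4.99, 5.97 and 6.20 in control 1, 2 and 3. Every dKO array lay over 1 log2 unit above the highest control array. The mean was 7.40 ± 0.17 in dKO and 5.72 ± 0.64 in control nerves (SD, n = 3 each), a change of 1.68 (SE 0.30, adjusted p = 0.00522 by limma), or 3.19-fold (95% interval 2.00 to 5.11). The call held without each array in turn, at changes of 1.31 to 1.92 (adjusted p up to 0.0229), and the lowest was without control 1. The other Gli2 probe set rose by 1.12 (SE 0.19, adjusted p = 0.00709 over all probe sets), from the same annotated sequence record.

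Gli1, an activator that is often measured to read pathway activity, had 6.55, 7.25 and 7.29 in dKO 1, 2 and 3, against 5.31, 6.38 and 6.39 in control 1, 2 and 3. Each dKO array lay above each control array, while dKO 1 exceeded control 2 and control 3 by under 0.2. The change was 1.004 (SE 0.32, 95% interval 0.26 to 1.75, adjusted p = 0.0611 by limma), or 2.01-fold, and did not pass. It was 0.65 without control 1 (adjusted p = 0.126) and 1.24 without dKO 1, where it passed (adjusted p = 0.0464). Gli1 had a single probe set.

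Gli3, which acts mostly as a repressor of Hedgehog targets, rose by less. It had 8.31, 8.11 and 7.77 in dKO 1, 2 and 3, against 7.30, 7.30 and 7.63 in control 1, 2 and 3. The groups did not overlap, but dKO 3 and control 3 were 0.14 apart. The change was 0.65 (SE 0.18, adjusted p = 0.0360 by limma), or 1.57-fold (95% interval 1.18 to 2.10). Leaving out any 1 of control 1, control 2, dKO 1 and dKO 2 ended the call (largest adjusted p = 0.116). It was also lost with arrays centred on the median of the tested genes (0.58, adjusted p = 0.0782). With its 3 probe sets averaged the change was 0.40 (adjusted p = 0.169), and 0 of the 3 passed in limma when adjusted over all probe sets (1 at an unadjusted p under 0.05).

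**Figure D2:**
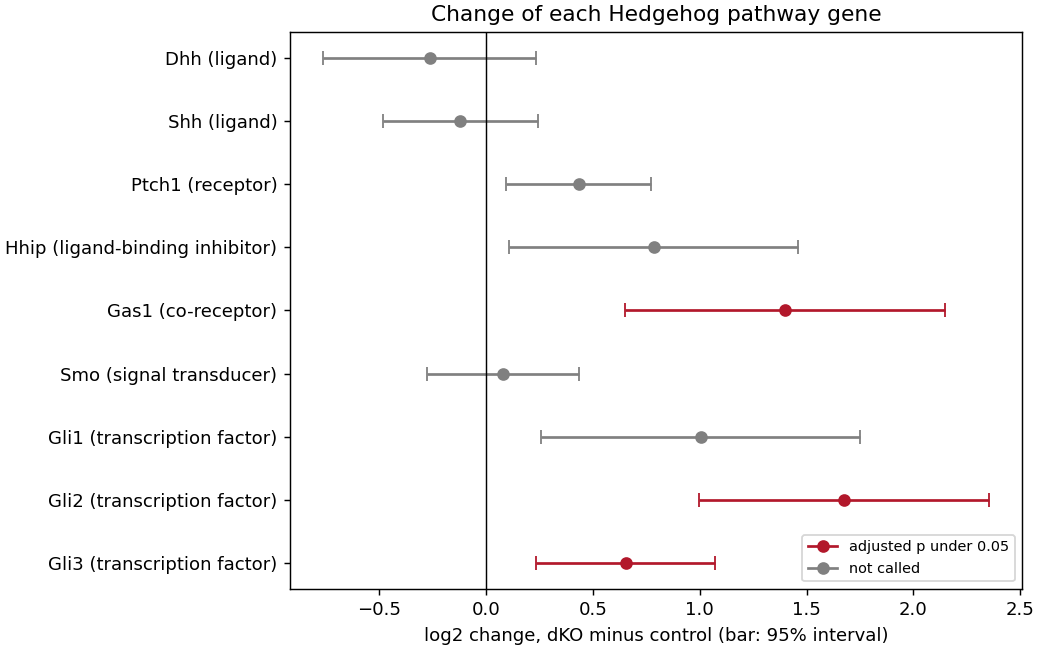
Log2 change (dKO minus control, x axis) of each Hedgehog gene with its 95% interval as the bar, red where the adjusted p was under 0.05. Gas1, Gli2 and Gli3 were called higher, and the intervals of Dhh, Shh and Smo span 0.

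**Figure D3:**
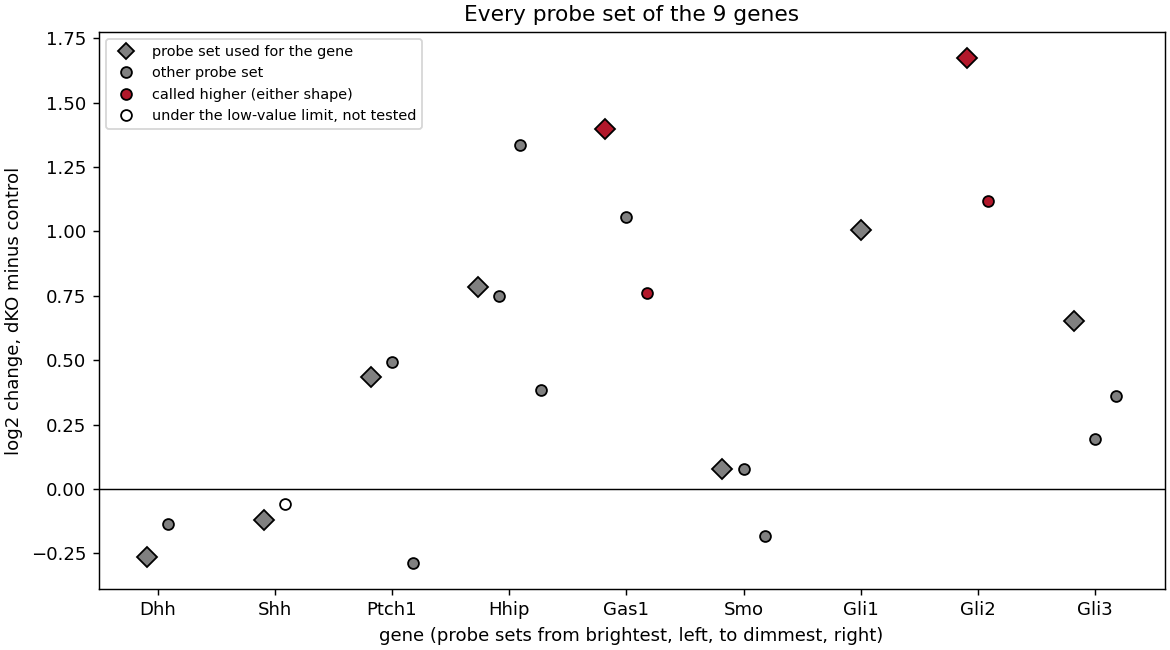
Log2 change (dKO minus control, y axis) of all 23 probe sets, grouped by gene (x axis), with diamonds for the probe set that represents the gene. Red marks the 4 called higher of 22 tested, which belong to Gas1 and Gli2, and 17 of the 23 have a dKO mean above the control mean. Over all 33975 probe sets tested, 8.42% were called higher and 7.4% lower. The 2 Gli2 probe sets share an annotated sequence record and are not separate evidence.

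Of 56 other pathway genes in 5 lists, 46 were tested, of which 11 rose, 1 fell and 34 did not pass, with a median change of 0.21. The 12 called were 26.1% of those tested, near the 22% called over all genes. By direction they were less alike, since over all genes 12.6% were called higher and 9.38% lower. That difference was not tested. Of the 12 called, 5 kept the call without each array in turn, namely Gpc4, Scube3, Stk36, Osr1 and Sfrp1. The other 7 lost it without at least 1 array.

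Among genes of ligand production, release and binding at the cell surface, 3 of 8 tested rose and 0 fell (median change 0.24). Of the genes that make or release the ligand, Scube3 alone was called. Gpc4 and Gpc3, cell surface glypicans that can bind Hedgehog or Wnt ligands, both rose, Gpc4 by 1.11 (SE 0.13, adjusted p = 0.000810) and Gpc3 by 0.75 (SE 0.17, adjusted p = 0.0167). Gpc4 had 12.12 to 12.13 in dKO and 10.96 to 11.11 in control nerves. Scube3, a secreted protein of a family that helps release Hedgehog from cells, rose by 0.93 (SE 0.13, adjusted p = 0.00162). It had 6.27 to 6.28 in dKO and 5.30 to 5.42 in control nerves. Hhat, the enzyme that attaches palmitate to the ligand, and Disp1, which exports it, had changes of -0.15 (SE 0.24) and -0.63 (SE 0.32), neither of which passed. Scube1 and Scube2 had changes of 0.33 and -0.06 and did not pass. The Gpc3 call was lost without control 2 or dKO 2 (adjusted p up to 0.0636).

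Of 7 tested genes of reception, 0 rose and 1 fell (median change 0.09). Efcab7, a ciliary protein that anchors the Evc complex, fell by 0.80 (SE 0.19, adjusted p = 0.0191), which no longer passed when control 1, control 2 or dKO 1 was left out (largest adjusted p = 0.0714). Its values were 6.93 to 7.50 in dKO and 7.76 to 8.15 in control nerves. Boc and Cdon, co-receptors that share the role of Gas1, had changes of 0.70 (SE 0.27, adjusted p = 0.100) and 0.46 (SE 0.18, adjusted p = 0.116) and did not pass. Both therefore had a positive change smaller than that of Gas1, and the difference from Gas1 was not tested.

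Of 11 tested genes listed for a role between Smo and the Gli proteins or on the Gli proteins, 4 rose and 0 fell (median change 0.21). Stk36 was listed for the role of its Drosophila homologue. The list mixes genes that carry the signal with genes that restrain it, such as Sufu and Prkaca, so these counts give no direction of signalling. Stk36, the homologue of Fused, a kinase of Hedgehog signalling in Drosophila, rose by 1.50 (SE 0.17, adjusted p = 0.000685). It had 6.88, 6.89 and 6.91 in dKO 1, 2 and 3, against 5.08, 5.53 and 5.57 in control 1, 2 and 3. With its probe sets averaged the Stk36 change was 0.94 (adjusted p = 0.00187). Prkaca, a catalytic subunit of protein kinase A, which marks Gli proteins for processing, rose by 0.88 (SE 0.22, adjusted p = 0.0225), a call lost without control 2 or control 3 (adjusted p up to 0.0678). Sufu, which holds Gli proteins in the cytoplasm, rose by 0.81 (SE 0.25, adjusted p = 0.0499). The Sufu change was 0.53 without control 1 and 0.36 with probe sets averaged (adjusted p = 0.0847 and 0.0726). Kif7, a kinesin of the cilium tip, rose by 0.70 (SE 0.19, adjusted p = 0.0310). The Sufu and Kif7 calls were each lost without 5 of the 6 arrays (adjusted p up to 0.124 and 0.0890). With the Xist level as a block the calls of Prkaca, Sufu and Kif7 were lost (adjusted p = 0.0550, 0.113 and 0.0692).

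Genes of ciliary transport, through which the signal passes, gave 0 calls among 8 tested (median change 0.26). The lowest p-values belonged to Ift172 (change -0.42, SE 0.13, adjusted p = 0.0547) and Ift88 (0.42, SE 0.16, adjusted p = 0.109), both of which build the transport trains of the cilium. Ift172, Ift88 and Tulp3, a carrier of ciliary receptors, were the genes with an unadjusted p under 0.05 in limma. Ift172 passed with all probe sets averaged, with a low-value limit of 6, with centred arrays and without moderation of the variance (adjusted p of 0.0296 to 0.0426). Ift88 passed without dKO 3 (change 0.57, adjusted p = 0.0229).

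Of 12 tested genes reported as Hedgehog targets in other tissues, 4 rose and 0 fell (median change 0.04). Foxd1, a forkhead factor of stromal cells, rose by 1.57 (SE 0.39, adjusted p = 0.0229), with 9.55 to 9.97 in dKO and 7.16 to 8.88 in control nerves. Osr1, a zinc finger factor of mesenchyme, rose by 1.47 (SE 0.23, adjusted p = 0.00314), with 7.04 to 7.38 in dKO and 5.32 to 6.23 in control nerves. Sfrp1, a secreted Wnt antagonist, rose by 1.03 (SE 0.22, adjusted p = 0.0119), and Ccnd2, which encodes cyclin D2, rose by 0.66 (SE 0.15, adjusted p = 0.0173). With probe sets averaged the Ccnd2 change was 1.28 (adjusted p = 0.000644). Foxd1 lost the call without any 1 of the dKO arrays (adjusted p up to 0.0742) and with the Xist level as a block (adjusted p = 0.0533), and Ccnd2 with any 1 of control 2, control 3, dKO 1 and dKO 2 left out (largest adjusted p = 0.0694). Mycn, a target in cerebellar progenitors, had a change of -0.90 (SE 0.28, adjusted p = 0.0520) and did not pass, and Foxf1, a target in gut mesenchyme, had one of 0.30 (SE 0.16, adjusted p = 0.220).

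**Figure D4:**
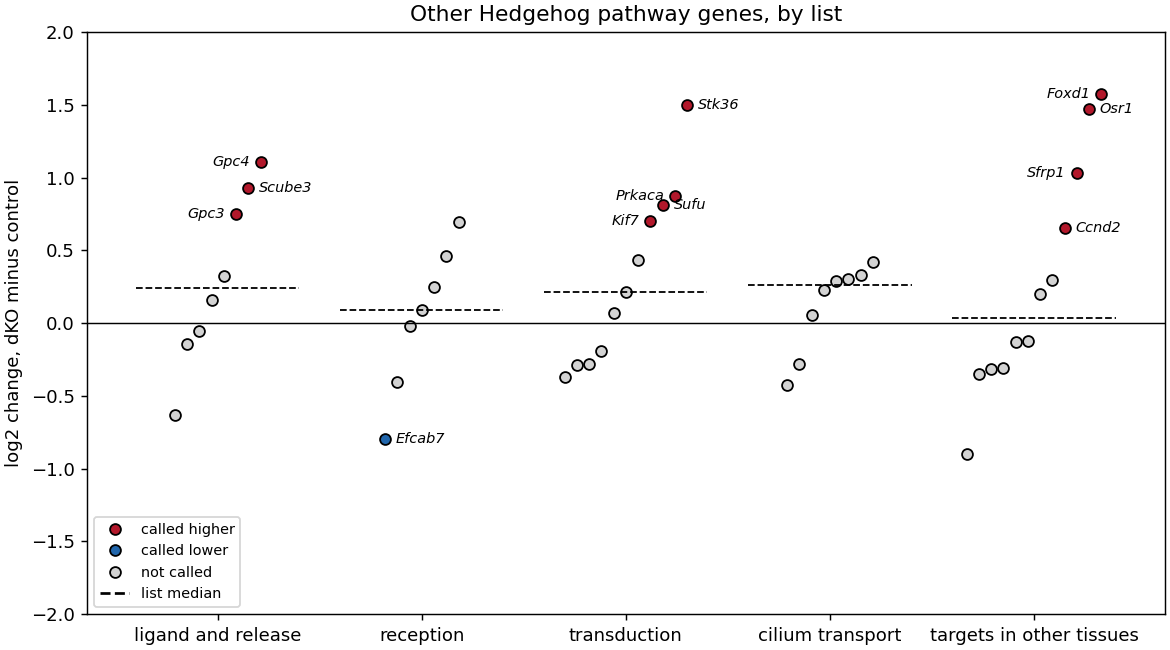
Log2 change (dKO minus control, y axis) of the 46 tested genes of the other pathway lists (x axis), each point a gene and each dashed line a list median. The 11 genes called higher and Efcab7, called lower, are named.

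Marker lists of the cell types a nerve can hold were read in the same fit, and list medians over the tested genes lay above 0 for every type but Schwann cells. For the counts that follow, the shares over all genes tested were 12.6% called higher and 9.38% called lower in dKO. Of 5 perineurial markers, all 5 were tested, 2 rose and 0 fell (median change 0.63). Cldn1, a tight junction protein of the perineurium, rose by 1.70 (SE 0.40, adjusted p = 0.0173). It had 9.02, 9.10 and 8.87 in dKO 1, 2 and 3, against 6.41, 7.22 and 8.25 in control 1, 2 and 3. Ntn4, a netrin of basement membranes, rose by 1.65 (SE 0.19, adjusted p = 0.000870). Slc2a1, the glucose transporter of perineurium and vessels, Ocln and Lypd2 had changes of 0.46, 0.52 and 0.63 and did not pass. The summed level of the list, most of which is the bright Slc2a1 probe set, ran from 11.07 to 11.40 (log2) in dKO and from 10.53 to 10.56 in control nerves. The perineurium had been stripped in both groups, per the labels, and how much of it was left on each sample was not tested.

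Of 8 endoneurial fibroblast markers, 4 rose and 0 fell (median change 0.65), with summed levels of 14.99 to 15.04 in dKO and 14.69 to 14.83 in control nerves. Dpt, which encodes the matrix protein dermatopontin, rose by 3.36 (SE 0.36, adjusted p = 0.000635), with 7.65, 6.42 and 6.87 in dKO 1, 2 and 3, against 3.10, 3.52 and 4.24 in control 1, 2 and 3. Its control values lay under or close to the low-value limit of 4, and the dKO arrays alone sufficed for it to pass the filter. The size of the Dpt change and its p-value are therefore uncertain. Pdgfra, a receptor that marks nerve fibroblasts, rose by 0.78 (SE 0.15, adjusted p = 0.00717), and Dcn and Lum, which encode matrix proteoglycans, by 0.86 and 0.76 (adjusted p = 0.0162 and 0.0266). The fibrillar collagen genes Col1a1 and Col3a1, which are the brightest of the list, had changes of 0.12 and 0.11, and Sox9 and Osr2 of 0.33 and 0.53, none of which passed. Averaged over the list, control 1 lay 0.25 below the control mean, control 2 was 0.03 above it and control 3 was 0.22 above it, and without Dpt these were 0.21 below, 0.05 above and 0.16 above. Gas1 and Gli2 had the same order of control arrays, with control 1 at 0.76 and 0.73 below their control means. The means of the perineurial, epineurial and adipocyte lists also had this order, but single genes differed. Cldn1, Ntn4, Dpp4 and Fabp4 had it, while Slc2a1, Ocln, Lypd2, Pi16, Clec3b and Cidec did not. In the fibroblast list Col1a1, Sox9 and Osr2 did not have it either. In dKO nerves Gli2 was highest on dKO 3 and Gas1 was lowest there, and the fibroblast list was highest on dKO 3 with or without Dpt. The part of cell composition in the changes of the Hedgehog genes was not tested. Of the 3 Schwann markers tested, Erbb3 and S100b fell and Sox10 did not pass (median change -1.33), with summed levels of 11.62 to 12.13 in dKO and 12.66 to 13.06 in control nerves.

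Among the other cell types, of 5 pericyte markers Kcnj8, Abcc9 and Rgs5 rose, while Pdgfrb and Cspg4 did not pass (median change 0.64). Of 5 macrophage markers Aif1 rose, while Csf1r, Cd68, Adgre1 and Ptprc did not pass (median change 0.76). Of 4 neuronal markers Snap25 rose, while Prph, Nefm and Stmn2 did not pass (median change 0.50), and of 3 epineurial fibroblast markers Dpp4 rose, while Pi16 and Clec3b did not pass (median change 0.51). In limma, 0 of 5 endothelial markers were called (Pecam1, Cdh5, Kdr, Tek and Emcn, 2 at an unadjusted p under 0.05, median change 0.49). Of the 4 muscle markers tested, Acta1, Myh3, Des and Tnnt3, 0 were called (0 at an unadjusted p under 0.05, median change 0.03), and Myog was under the limit on all arrays. Acta1 was under the limit on every dKO array (3.89 to 3.94) and passed the filter through the control arrays alone. Of 2 tested adipocyte markers Fabp4, a fatty acid binding protein that endothelial cells and macrophages also make, rose and Cidec did not pass, while Adipoq, the defining adipocyte hormone, was under the limit on all arrays. The macrophage list, of which Csf1r is the brightest gene, had summed levels of 10.87 to 11.93 in dKO and 10.10 to 10.65 in control nerves. The means of the macrophage, perineurial, endoneurial, epineurial, pericyte and adipocyte lists were all highest on dKO 3. On that array the probe set used for Dhh was lowest, while the dimmer Dhh probe set was highest. Among the dKO arrays, those of the endothelial, neuronal and muscle lists were highest on dKO 2. The Schwann list was lowest on dKO 2, at -1.25 from the control mean, against -0.88 on dKO 1 and -0.90 on dKO 3. The median over tested genes was also highest on dKO 3 (7.64, against 7.505 on dKO 1 and 7.522 on dKO 2). A link between Dhh and these lists was not tested.

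**Figure D5:**
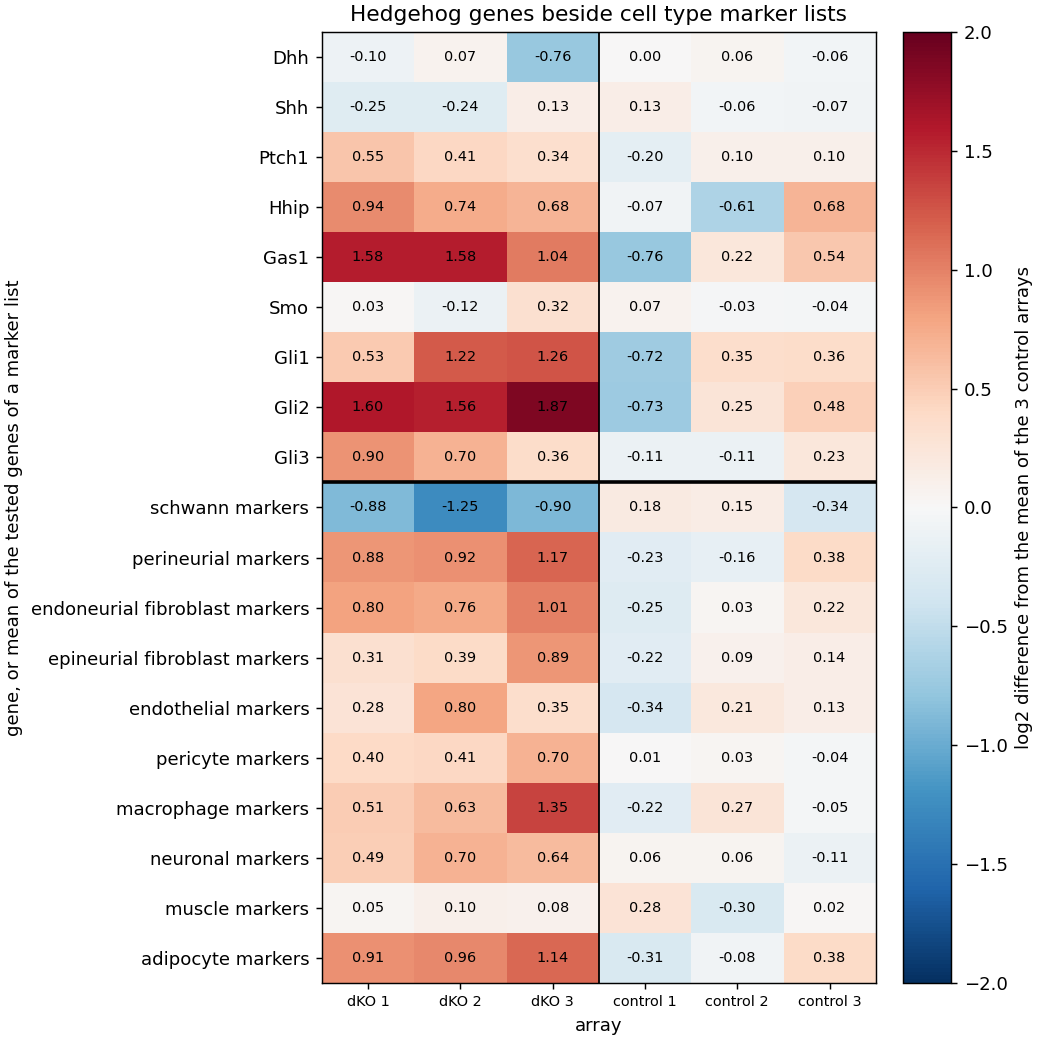
Log2 difference from the mean of the 3 control arrays (colour and number) for each Hedgehog gene and for the mean of each marker list (rows) on each array (columns). Gas1 and Gli2 are above 1 on every dKO array, the fibroblast and perineurial lists lie between 0.31 and 1.17 there, and control 1 is at -0.76, -0.72 and -0.73 for Gas1, Gli1 and Gli2.

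The genes whose 6 values lay closest to each called member, relative to control means, were found by root mean square distance over the 6 arrays. For Gli2 they were Cd248, which encodes the stromal protein endosialin, Bend5 and Colec12, at distances of 0.11 to 0.13. For Gas1 they were the Wnt inhibitor gene Dkk2, the receptor kinase gene Tyro3 and Dact1, at 0.10 to 0.14. For Gli3 they were Nhsl1, Eid3 and Wee1, a cell cycle kinase gene, at 0.08 to 0.10. Cd248 had 9.23, 9.32 and 9.54 in dKO 1, 2 and 3, against 6.90, 7.71 and 8.26 in control 1, 2 and 3.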

How the data were processed

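RNA of 3 dKO and 3 control sciatic nerve samples was hybridised to 6 arrays, grouped by the sample titles. The authors deposited 1 log2 value for each probe set. Per the submitters' processing notes they used GCOS 1.2 and GCRMA, with settings not given in the sources used here. That the scale is log2 follows from the range of 1.66 to 14.94. Each array had a median of 5.77 and the same sorted values within 0.01, so these values cannot show a shift shared by all genes. Symbols came from the platform annotation and were updated by gene ID (RefSeq, GRCm38.p6). RefSeq promoter windows of that build matched 7 of the 9 genes.

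Of 18194 genes, 14550 reached the low-value limit of 4 on 3 or more of the 6 arrays and were tested with limma 3.58.1 in R 4.3.3, with no covariate, and all p-values are two-sided. Probe sets were fitted and adjusted separately, over 33975. The fit was tested on simulated data. The members and lists were chosen with earlier results of these data known. The text names all 9 members, Hdac1 and Hdac2, the marker genes with a value, from each pathway list up to 4 called genes (2 where 0 were called), and the 3 genes nearest to each called member. Other list genes were named after their values were seen. List members with no value were not analysed here.

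Same-numbered replicates did not deviate together (correlations of 0.04, -0.12 and -0.24 across 14550 genes), so the numbers were not treated as pairs. The median SE of a change was 0.17. Alternatives were averaged probe sets, other low-value limits, centred arrays, other variance models, a replicate block, leaving out each array and, chosen after the data were seen, the Xist level (high or low) as a block.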

Additional observations from a re-analysis of the deposited data

How the results depend on the processing

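The dKO mean lay above the control mean for Gli2, Gas1, Gli3, Gli1, Hhip and Ptch1, and below it for Dhh and Shh, under each of the 15 alternatives that gave a value; of these 8 genes, Gli1, Hhip, Ptch1, Dhh and Shh did not pass the test. Shh was under the limit when probe sets were averaged or the limit was 6. Smo (0.08) turned to -0.009 with probe sets averaged and to -0.045 without dKO 3, in a range of -0.045 to 0.175 with each array left out. The number of Hedgehog genes called was 3, and 1 to 4 without each array in turn (1 without dKO 2, Gli2 alone). Without moderation of the variance it was 0, all higher calls being lost (4 of the 9 at an unadjusted p under 0.05), and 1526 genes were called in all, 810 higher and 716 lower, against 3198, 1833 and 1365. With each array left out, 2178 to 2916 genes were called, 1246 to 1585 higher and 891 to 1331 lower. With the replicate number as a block, 2557 genes were called, and 3 Hedgehog genes, with Gli1 in place of Gli3 (adjusted p = 0.00959 and 0.0867). With the Xist level as a block 2349 genes were called, 1309 higher and 1040 lower, and 4 Hedgehog genes. Of 373 values of single genes under the alternatives, 307 kept direction and side of the threshold, 54 no longer passed, 10 newly passed and 2 turned. The causes were not tested. Precision is set by having 3 arrays in a group, and Shh and the dimmest Hhip probe sets lay near the low-value limit.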
